A study of Mus musculus with 7 samples.

Results

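The genes of the SNARE machinery and its regulators were followed in sorted pancreatic beta cells of young mice. The members were all genes on the array whose symbol starts with Syt, Sytl, Stx, Stxbp, Snap, Vamp, Cplx or Rims followed by a number, or with Unc13. This rule found 65 of the 19938 genes that a probe set with 1 gene symbol measured, each read from its brightest probe set. Membership went by names, not values, but the rule was chosen with earlier results of these data known. Total RNA of 7 mice was hybridised to Affymetrix arrays, 1 mouse to each array, with 3 weaned and 4 suckling mice. All mice were of ICR background and carried insulin-Cre, which the insulin promoter drives, and Rosa26-LSL-YFP, a reporter that Cre switches on. All were taken at postnatal day 25, a week after the weaned mice had been separated prematurely at day 18, and 2000 to 6000 YFP+ cells were sorted from each. The comparison asks how premature weaning bears on beta cell expression. Replicates are called by the numbers in the labels, which are 4, 5 and 12 for weaned and 2, 9, 11 and 12 for suckling mice. The descriptions carry the code L13 on every weaned and L14 on every suckling array, and whatever the code stands for cannot be told apart from weaning.

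SNARE proteins drive the fusion of a vesicle with its target membrane: a syntaxin and a SNAP-25 relative on the target membrane zip up with a vesicle-associated membrane protein (VAMP) on the vesicle. Sec1/Munc18 proteins and Munc13 proteins guide the assembly, RIM proteins place it at release sites, complexins clamp and aid it, and synaptotagmins sense the calcium that triggers release. In beta cells this machinery releases insulin granules, and other sets of SNAREs carry cargo from the endoplasmic reticulum to the Golgi and between endosomes.

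All 13 beta cell markers lay above background in both groups, and their mean level was 9.71 to 9.86 log2 units on every array. Of these markers 6 had a higher and 7 a lower mean in weaned mice. Only Pdx1 had an unadjusted p under 0.05 (difference 0.33, unadjusted p = 0.0344, limma), with overlapping groups. Background was taken as the range of Xist and of the Y-linked Eif2s3y, Uty and Kdm5d on arrays without their signal, 1.80 to 3.15 log2 units. Weaned replicate 12 carried neither signal, whereas each other array carried 1 of them. The mean of 21 acinar markers ranged from 3.78 to 5.76 in weaned and from 4.15 to 7.41 in suckling mice and was highest in suckling replicates 2 and 9. Of the 21 markers 21 had a lower mean in weaned mice, among them Ptf1a, at background in both groups, by 0.002. Bhlha15, at 7.52 to 8.71, had the smallest p of the list and was lower on every weaned array (difference -0.71, unadjusted p = 0.00245, limma). Its difference was -0.79 with the acinar mean, which includes it, as a covariate. Markers of endothelium, mesenchyme, leukocytes and of Schwann cells and neurons had list means of 3.01 to 3.77 on all arrays, with 5 or 6 members of each list at background in their mean. Single genes of these lists were brighter, among them C1qa at 7.45 to 8.21 and Th at 5.74 to 6.40, both with overlapping groups. The 6 duct markers had list means of 5.05 to 5.78, and of these Muc1 was lower on every weaned array (difference -0.65, unadjusted p = 0.0104, limma). Krt19 ran from 3.60 on suckling replicate 2 to 6.84 on suckling replicate 12, and its groups overlapped. Hormone genes of other islet cells were bright on every array: Gcg read 11.7 to 12.3, Sst 11.5 to 12.2, Ppy 10.7 to 11.9 and Pyy 11.4 to 12.1, with overlapping groups. The part of these cells in the results was not tested, apart from the acinar covariate. In such bulk samples fewer cells of a type and less RNA per cell cannot be told apart.

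Promoter windows are shown for the 3 members above background with the smallest p-values, chosen after the values were seen. They come from RefSeq (build GRCm38.p6), run from 250 bases before to 50 after an annotated start, and are printed in the direction of the gene. Capitals mark letters of the motifs searched on both strands: TGACGTGG, the core of the unfolded protein response element, TGACGTCA, the cyclic AMP response element, and GGGCGG, the GC box.
Stx5a, chr19:8741174-8741473, plus strand: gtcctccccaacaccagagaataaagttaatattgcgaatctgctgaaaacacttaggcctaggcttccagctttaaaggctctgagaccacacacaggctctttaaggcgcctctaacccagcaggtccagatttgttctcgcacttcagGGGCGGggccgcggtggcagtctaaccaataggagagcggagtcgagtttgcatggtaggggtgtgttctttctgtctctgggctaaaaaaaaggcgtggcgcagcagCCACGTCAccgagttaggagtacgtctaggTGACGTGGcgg
Syt10, chr15:89841811-89842110, minus strand: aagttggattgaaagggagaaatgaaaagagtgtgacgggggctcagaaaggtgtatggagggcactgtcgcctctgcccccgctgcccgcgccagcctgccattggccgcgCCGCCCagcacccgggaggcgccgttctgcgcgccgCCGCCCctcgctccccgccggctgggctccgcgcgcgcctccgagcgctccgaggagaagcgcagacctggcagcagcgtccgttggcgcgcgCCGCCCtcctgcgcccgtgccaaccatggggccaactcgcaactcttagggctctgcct
Cplx2, chr13:54302306-54302605, plus strand: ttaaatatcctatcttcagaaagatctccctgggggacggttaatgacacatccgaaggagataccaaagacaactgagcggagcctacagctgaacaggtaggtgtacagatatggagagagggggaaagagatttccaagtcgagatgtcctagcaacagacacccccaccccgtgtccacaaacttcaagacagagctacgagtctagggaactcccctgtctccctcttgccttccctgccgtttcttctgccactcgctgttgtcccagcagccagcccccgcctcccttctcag
Of the 65 members, 51 had at least 1 window, 62 windows in all. The Stx5a window held TGACGTGG, read on either strand, starting at bases 10 and 40 after the annotated start, with a GC box at -99. That was the only member window with this core, which 0.676% of the 32851 windows of all genes held. A second Stx5a window matched none of these motifs. The Syt10 window held 3 GC boxes, at -138, -102 and -9, and the Cplx2 window matched no motif. The cyclic AMP response element was found in 1 member window, that of Stxbp3, against 1.79% of all windows. GC boxes were in 40 member windows (64.5%) against 35.7% of all windows. These are matches of letters, and no binding was measured here.

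No member passed the test for a difference between weaned and suckling mice. The count was 0 at an adjusted p of 0.05 (limma, Benjamini-Hochberg over all genes), where 0.015% of all genes (3 of 19938) passed, and the lowest adjusted p among members was 0.370, for Stx5a. At an unadjusted p under 0.05 stood 11 members (16.9%), against 7.58% of all genes. Of these, 3 had a higher mean in weaned mice (background 4.39%) and 8 a lower mean (background 3.19%). The higher ones were Cplx2, Stx17 and Stx6, and the lower ones Stx5a, Stx19, Syt10, Sytl3, Stx12, Rims4, Vamp3 and Snap47. Leaving out 1 array put the total between 7 and 11: it was 7 without suckling replicate 11 or without weaned replicate 12. The higher count was 1 without suckling replicate 2, and the lower count was 4 without suckling replicate 11 and 5 without suckling replicate 12, weaned replicate 12 or weaned replicate 5. With the acinar mean as a covariate, 1 member was higher and 7 were lower. Shares over all genes were not taken under these alternatives, so these counts have none to stand beside.

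Groups did not overlap in 12 members (18.5%), against 7.32% of all genes. Over the 60 members above background in both groups the count was 10 (16.7%), and the share over all genes at such levels was not taken. Among the 12 members, all weaned arrays lay above all suckling arrays in 4 (background 3.9%), which were Cplx2, Stx6, Syt2 and Stx8. They lay below in 8 (background 3.43%), which were Stx5a, Stx19, Syt10, Sytl3, Vamp3, Snap47, Sytl2 and Unc13b. With fewer arrays there is less to overlap: the count was 21 without suckling replicate 2 and 19 without weaned replicate 4 or weaned replicate 5. The share over all genes was not taken with these arrays left out, and 7.32% holds for the 7 arrays alone.

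Over all members, 24 had a higher and 41 a lower mean in weaned mice. Their median log2 difference was -0.05, against 0.00047 over all genes (9992 higher, 9946 lower). Differences under 0.1 log2 units were found in 24 members (36.9%, against 43.5% of all genes). Differences over 0.5 were found in 4 (6.15%, against 2.44% of all genes), 1 of which, Stx19, has only a bound. The median standard error was 0.15, and the median 95% interval reached 0.34 to either side. Means of 60 members lay above background in both groups. Cplx3, Cplx4 and Sytl2 lay at background in both groups, so no fold is given for them, and Stx19 and Unc13c in weaned mice alone, so their folds are bounds.

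**Figure D1:**
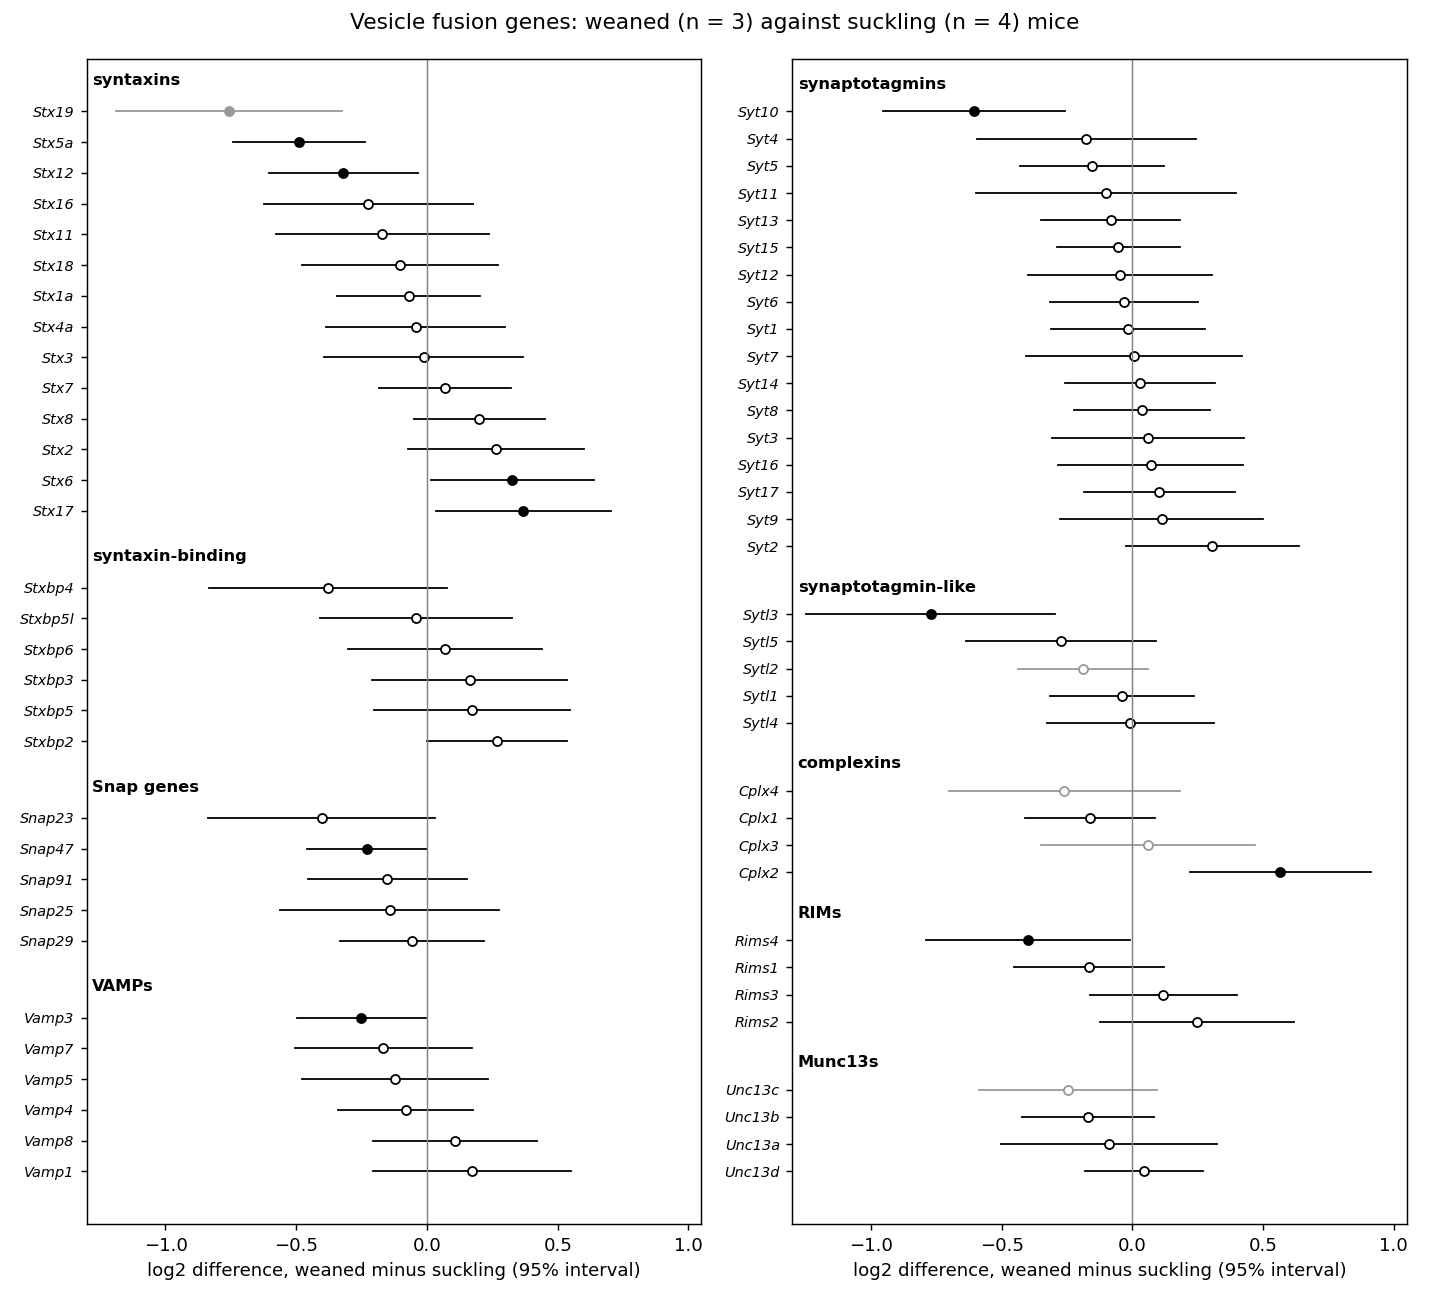
Log2 difference (weaned minus suckling, x axis) of each of the 65 members, grouped by family, with points for the estimate and bars for the 95% interval from limma; filled points have an unadjusted p under 0.05, and grey marks members at background in at least 1 group. Cplx2 (0.57), Stx17 (0.37) and Stx6 (0.33) stand on the higher side, and Sytl3 (-0.77), Syt10 (-0.61) and Stx5a (-0.49) on the lower side; the grey Stx19 point is a fitted value whose weaned arrays lie within background.

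Syntaxins, the target membrane SNAREs, held the member with the smallest p, Stx5a, which works in fusion between the endoplasmic reticulum and the Golgi and within the Golgi. Its log2 levels were 8.36, 8.23 and 8.31 in weaned and 8.65, 8.74, 8.82 and 8.95 in suckling mice. Every weaned array lay below every suckling array, with a gap larger than the spread within the weaned group. The difference was -0.49 ± 0.11 (SE), or 1.40-fold lower in weaned mice (unadjusted p = 0.00169, adjusted p = 0.370, limma). Leaving out 1 array gave -0.53 to -0.44, and the acinar covariate gave -0.55 (unadjusted p = 0.00246). Without suckling replicates 2 and 9, whose acinar means were highest, it was -0.58. An unadjusted p under 0.05 was found in 15 of 15 alternatives, with adjusted p from 0.181 to 0.902. The alternatives refit the same arrays or most of them, so they are no independent support.

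Other genes of this transport step were read from a list of 24 further SNAREs and SNARE-disassembly genes, in which 2 (8.33%, near the 7.58% of all genes) had an unadjusted p under 0.05, both lower in weaned mice, and none passed adjustment. Those 2 were Sec22b and Uso1. Sec22b, the R-SNARE that can pair with Stx5a, had levels of 8.68, 8.43 and 8.40 in weaned and 8.81, 8.85, 8.98 and 8.99 in suckling mice. Its groups did not overlap, and the difference was -0.40 ± 0.12 (unadjusted p = 0.00684, adjusted p = 0.518, limma). Uso1, the Golgi tether p115, read 9.74, 9.49 and 9.41 in weaned and 9.76, 9.87, 9.84 and 9.96 in suckling mice. These groups were apart by a narrow margin, at weaned replicate 4, and differed by -0.31 ± 0.12 (unadjusted p = 0.0255, adjusted p = 0.624, limma). Further partners were picked from the list by their role after the values were seen, and all but Napa overlapped between groups. Bet1 and Gosr2, the other SNAREs of the Stx5a complex, differed by -0.26 and -0.13, and Scfd1, its Sec1/Munc18 protein, by -0.20. Ykt6, Gosr1 and Bet1l, SNAREs of Golgi transport, differed by 0.03, 0.06 and 0.17. Vti1a, an endosomal and Golgi SNARE, had a higher mean in weaned mice by 0.32 (unadjusted p = 0.0580, limma). Of the disassembly proteins, Nsf, the ATPase, differed by -0.09 and overlapped, and Napa, its adaptor alpha-SNAP, was lower on every weaned array by 0.16 in the mean, with an unadjusted p of 0.164 in limma. Over the 24 genes 13 had a higher and 11 a lower mean, with a median of 0.0087.

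**Figure D2:**
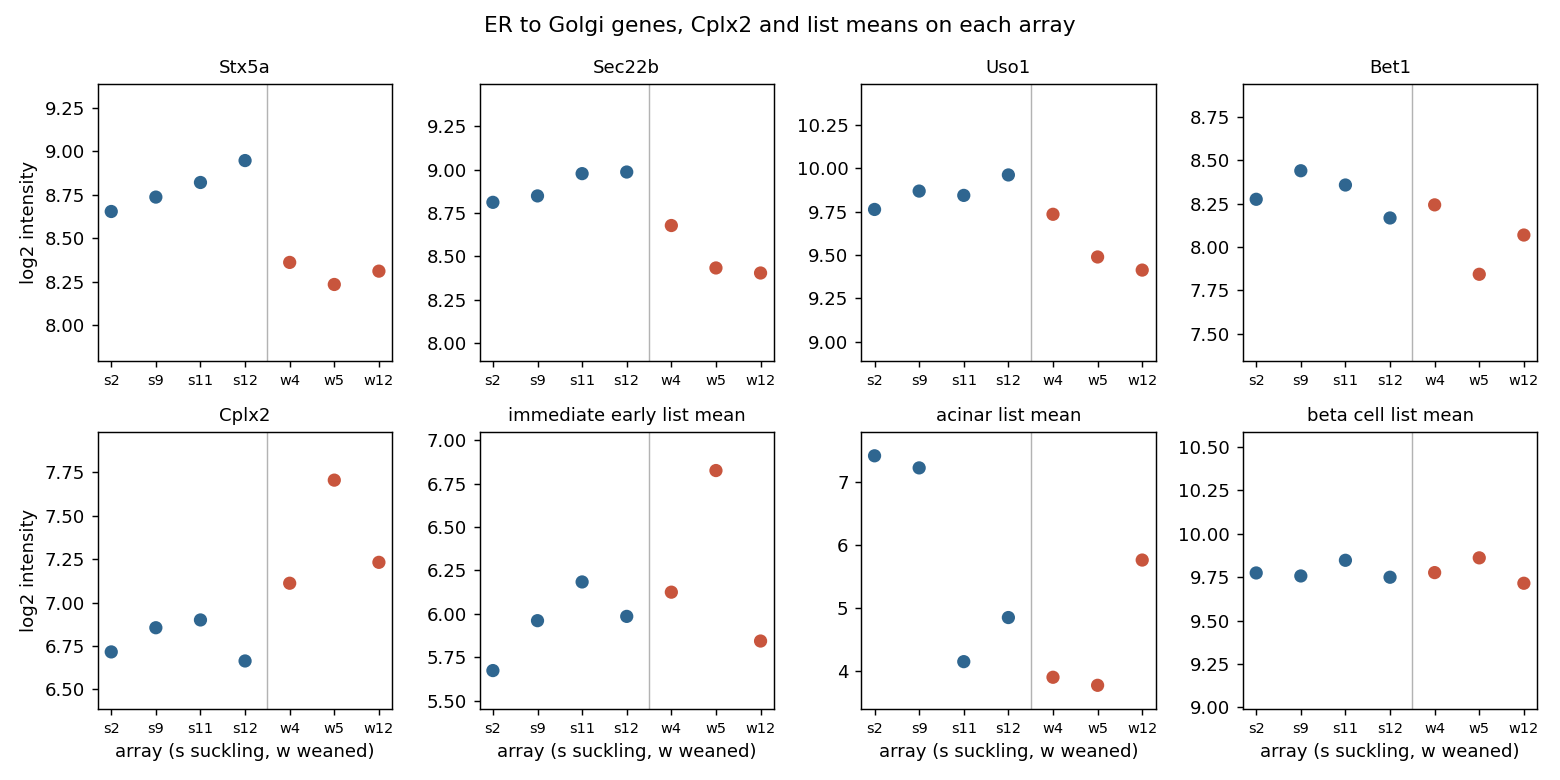
Log2 intensity (y axis) on each array (x axis; s for suckling in blue, w for weaned in red) of Stx5a, Sec22b, Uso1, Bet1 and Cplx2, and of the means of the immediate early, acinar and beta cell lists. Stx5a, Sec22b and Uso1 lie lower on all 3 weaned arrays than on all 4 suckling arrays, Bet1 overlaps, Cplx2 and the immediate early mean are both highest on weaned replicate 5, and the acinar mean is highest on suckling replicates 2 and 9.

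The other syntaxins of internal membranes went both ways. Stx12, a recycling endosome syntaxin, read 6.62, 6.75 and 6.61 in weaned and 6.75, 7.03, 6.96 and 7.19 in suckling mice. The groups met at suckling replicate 2, and the difference was -0.32 ± 0.13 (unadjusted p = 0.0320, limma). Stx17, which brings autophagosomes to fuse with lysosomes, read 5.78, 5.66 and 5.95 in weaned and 5.10, 5.46, 5.48 and 5.66 in suckling mice. Its difference of 0.37 ± 0.15 (unadjusted p = 0.0344, limma) leaned on suckling replicate 2, the lowest array, and was 0.26 without it. Stx6, a SNARE of the trans-Golgi network and early endosomes, read 5.80, 6.09 and 5.79 against 5.29, 5.62, 5.67 and 5.70. All weaned arrays were above, by 0.33 ± 0.14 in the mean (unadjusted p = 0.0424, limma), and the difference was 0.21 with the acinar covariate (unadjusted p = 0.196). Stx16, which pairs with Stx6 at the trans-Golgi network, differed by -0.22 ± 0.18 and overlapped. Stx7 and Stx8, late endosomal SNAREs of 1 complex, differed by 0.07 and 0.20, and Stx18, an endoplasmic reticulum syntaxin, by -0.10. For Stx8 every weaned array (6.62 to 6.86) lay above every suckling array (6.41 to 6.59), with an unadjusted p of 0.104 in limma.

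Stx19 and Stx11, syntaxins without a transmembrane anchor, lay low on the arrays. Stx19 read 2.41, 2.73 and 2.41 in weaned and 3.31, 3.04, 3.76 and 2.98 in suckling mice. Weaned mice were thus within background throughout, as were suckling replicates 9 and 12, and suckling replicates 2 and 11 lay above it. The suckling mean leaves a bound of at least 1.09-fold higher in suckling mice, which was not tested. The p-values belong to the fitted difference of -0.76 (unadjusted p = 0.00313, adjusted p = 0.449, limma). Stx11, a syntaxin of immune cell granule release, read 3.02 to 3.57 against 3.12 to 3.71, and the groups overlapped.

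Of the plasma membrane syntaxins, Stx1a, Stx3 and Stx4a had group means within 0.1 of each other. Stx1a, the syntaxin of the docked insulin granule, read 4.67, 4.72 and 4.65 in weaned and 4.52, 4.77, 4.93 and 4.78 in suckling mice. The difference was -0.07, with a 95% interval from -0.34 to 0.20. Stx4a, which also serves insulin granule fusion, differed by -0.04 (-0.39 to 0.30), and Stx3, used in granule to granule fusion, by -0.01 (-0.39 to 0.37). Stx2 had a mean higher by 0.26 (-0.07 to 0.60), where weaned replicate 5 was the highest array at 5.60. These intervals include differences as large as that of Stx12. Of the 14 syntaxins 5 had a higher and 9 a lower mean, and the 13 above background in both groups had a median of -0.04.

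**Figure D3:**
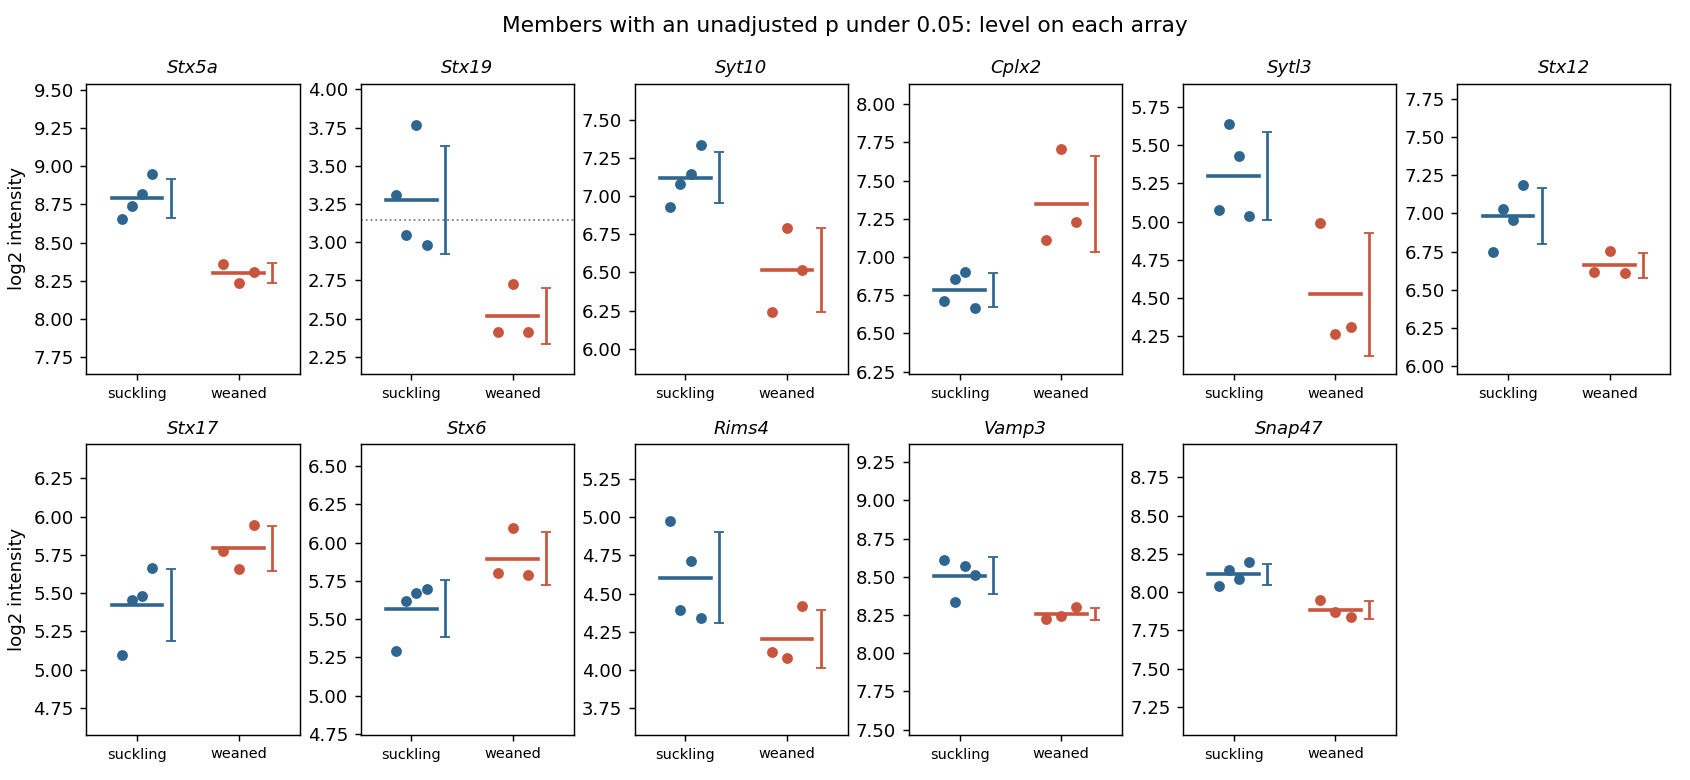
Log2 intensity (y axis, a range of the same span for every gene but not from 0) of the 11 members with an unadjusted p under 0.05, with 1 point for each mouse, a line at the group mean and a bar for the SD (suckling n = 4, weaned n = 3); the dotted line in the Stx19 panel is the top of background, 3.15. Stx5a, Syt10, Sytl3, Vamp3, Snap47 and Stx19 have all weaned points below all suckling points, Cplx2 and Stx6 all above, and Stx12, Stx17 and Rims4 overlap.

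All 5 members named Snap had a lower mean in weaned mice (median -0.15), and none passed adjustment in limma. Snap25, the SNAP of insulin granule release, read 8.51, 8.92 and 8.77 in weaned and 8.41, 8.93, 9.00 and 9.16 in suckling mice. The groups overlapped widely, and the difference was -0.14 ± 0.19 (95% interval -0.56 to 0.27). Snap23, its broadly expressed relative, read 7.79, 7.68 and 7.24 against 7.57, 7.96, 8.06 and 8.31. The difference was -0.40 ± 0.19 (unadjusted p = 0.0658, limma), and it varied with the setting: it was -0.64 with the acinar covariate (unadjusted p = 0.00490), and -0.24 without weaned replicate 12, the lowest array. Snap47, a SNAP relative of internal membranes, was lower on every weaned array (7.95, 7.87 and 7.84 against 8.04, 8.14, 8.08 and 8.19). That came to -0.23 ± 0.10 (unadjusted p = 0.0495, limma). Snap29, the partner of Stx17 in autophagosome fusion, differed by -0.06 and overlapped. Snap91 carries the name but is AP180, a clathrin adaptor and no SNARE, and differed by -0.15.

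Among the vesicle-side SNAREs, 2 of 6 had a higher and 4 a lower mean. Vamp2, the main VAMP of insulin granules, shares its probe set with another gene symbol and was not analysed here. Vamp3, cellubrevin, an endosomal VAMP that can also serve insulin granules, read 8.22, 8.24 and 8.30 in weaned and 8.61, 8.34, 8.57 and 8.51 in suckling mice. The groups were separated by less than the spread of the suckling group, with a difference of -0.25 ± 0.11 (unadjusted p = 0.0467, limma). Vamp8, endobrevin, which has been tied to newcomer insulin granules, read 9.48, 9.29 and 9.15 against 8.95, 9.22, 9.42 and 9.20, and differed by 0.11 (-0.21 to 0.42), or -0.03 with the acinar covariate. Vamp7, a lysosomal VAMP, and Vamp4, of the trans-Golgi network, differed by -0.17 and -0.08. Vamp5, of muscle, and Vamp1, a neuronal VAMP, lay at 3.36 to 4.13 on all arrays and differed by -0.12 and 0.17.

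Of 6 syntaxin-binding genes 4 had a higher and 2 a lower mean, with a median of 0.12, and no unadjusted p was under 0.05. Stxbp2 (Munc18-2), best known for granule release in blood cells, read 7.48, 7.18 and 7.35 in weaned and 7.02, 6.96, 7.22 and 7.07 in suckling mice. Weaned replicate 5 lay just under suckling replicate 11, and the difference was 0.27 ± 0.12 (unadjusted p = 0.0508, limma). Stxbp3 (Munc18c), the regulator of Stx4a, differed by 0.16, and weaned replicate 4 stood above all other arrays at 6.91. The tomosyns Stxbp5 and Stxbp5l, which hold SNAREs in unproductive complexes, differed by 0.17 (-0.20 to 0.55) and -0.04 (-0.41 to 0.32), and Stxbp5 by -0.04 with the acinar covariate. Stxbp4 (Synip), which binds Stx4a, had the lowest mean difference of the family, -0.38 ± 0.20. Weaned replicate 4 was lowest at 5.23 and suckling replicate 12 highest at 6.44, and the other arrays lay between 5.75 and 5.99. The difference was -0.19 without weaned replicate 4, -0.23 without suckling replicate 12, and -0.18 when its 2 probe sets were averaged. Stxbp6 (amisyn), another SNARE regulator, differed by 0.07.

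Synaptotagmins, the largest family with 17 members, were balanced: 8 had a higher and 9 a lower mean, the median was -0.02, and 11 differed by less than 0.1. The largest difference was that of Syt10. This gene, known as the calcium sensor for secretion of insulin-like growth factor in olfactory neurons, read 6.24, 6.79 and 6.51 in weaned and 6.93, 7.08, 7.14 and 7.33 in suckling mice. All weaned arrays lay below all suckling arrays, with weaned replicate 5 closest. The difference was -0.61 ± 0.15, or 1.52-fold lower in weaned mice (unadjusted p = 0.00328, adjusted p = 0.449, limma). It was -0.69 with the acinar covariate and -0.47 without weaned replicate 4, and its unadjusted p was under 0.05 in 15 of 15 alternatives.

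The synaptotagmins linked to insulin release showed smaller differences. Syt7, a calcium sensor of insulin granules, read 6.05, 6.52 and 6.72 in weaned and 6.32, 6.15, 6.64 and 6.58 in suckling mice. The group means were nearly equal, with a difference of 0.01 and an interval from -0.41 to 0.42. Syt4, which has been tied to the maturation of calcium sensitivity in beta cells, read 9.06, 8.28 and 8.46 against 8.60, 8.95, 8.67 and 8.88. Its difference was -0.18 (-0.60 to 0.24), and -0.40 without weaned replicate 4, the highest array (unadjusted p = 0.0234, limma). Syt13, an atypical synaptotagmin of endocrine cells, read 9.37 to 9.72 in weaned and 9.53 to 9.70 in suckling mice and differed by -0.08 (-0.35 to 0.18). Syt5 and Syt9, calcium sensors of dense core granules, differed by -0.15 (-0.43 to 0.12) and 0.11 (-0.28 to 0.50). Syt3, another calcium-binding synaptotagmin, differed by 0.06 and Syt11, which binds no calcium, by -0.10. Syt11 had the widest spread of any member above background in the suckling group, from 5.83 on replicate 2 to 6.84 on replicate 11 (SD 0.43). Syt14, another calcium-independent member, differed by 0.03. Syt2, a fast sensor of synapses, lay low but apart: 4.01, 4.07 and 3.85 in weaned against 3.75, 3.84, 3.77 and 3.31 in suckling mice. The margin was narrow, and the difference of 0.31 ± 0.15 (unadjusted p = 0.0664, limma) was 0.19 without suckling replicate 12. Syt1, the main sensor of synapses, read 3.27 to 3.72 on all arrays, close to background, and differed by -0.02. Syt6, Syt8, Syt12, Syt15, Syt16 and Syt17 likewise lay between 2.95 and 3.91 on every array and differed by -0.05 to 0.10.

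All 5 synaptotagmin-like genes, whose products tie Rab27 on a granule to the plasma membrane, had a lower mean in weaned mice, among them the 4 above background in both groups, whose median was -0.16. Sytl3, known from granules of cytotoxic T cells, had the largest difference of all members: 4.99, 4.27 and 4.31 in weaned against 5.08, 5.64, 5.43 and 5.04 in suckling mice. Weaned replicate 4 lay near the suckling group, and the other weaned arrays were well below it. The difference was -0.77 ± 0.21, or 1.71-fold lower in weaned mice (unadjusted p = 0.00510, adjusted p = 0.505, limma), with an unadjusted p of 0.000771 to 0.0290 when 1 array was left out. Sytl4 (granuphilin), which docks insulin granules, read 9.41, 8.92 and 8.90 against 9.09, 9.02, 9.07 and 9.15, and differed by -0.01 (-0.33 to 0.31). Sytl5, another Rab27 binder, read 6.46, 6.63 and 6.65 against 6.49, 6.76, 7.05 and 7.12. Its difference of -0.27 (unadjusted p = 0.123, limma) was -0.43 with the acinar covariate (unadjusted p = 0.0282) and -0.50 without suckling replicates 2 and 9 (unadjusted p = 0.00682). Sytl1 differed by -0.04, and Sytl2 lay at background.

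Complexins gave the largest difference upward. Cplx2 read 7.11, 7.71 and 7.23 in weaned and 6.72, 6.85, 6.90 and 6.66 in suckling mice. All weaned arrays lay above all suckling arrays, and weaned replicate 5 stood highest. The difference was 0.57 ± 0.15, or 1.48-fold higher in weaned mice (unadjusted p = 0.00484, adjusted p = 0.505, limma). It was 0.39 without weaned replicate 5 and 0.52 with the acinar covariate, and its unadjusted p was under 0.05 in 15 of 15 alternatives. The mean of 12 immediate early genes, which cell dissociation can induce, was also highest on weaned replicate 5, at 6.83, against 5.84 and 6.12 on the other weaned and 5.67 to 6.18 on the suckling arrays. Of those 12 genes, 10 had a higher mean in weaned mice (median 0.38), and their part in the Cplx2 values was not tested. Cplx1, the other complexin above background, read 3.53 to 3.64 in weaned and 3.60 to 3.89 in suckling mice, a difference of -0.16 (-0.41 to 0.09). Cplx3 and Cplx4, complexins of retinal ribbon synapses, lay at background.

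Release site genes varied without a common direction. Rims2, the RIM of insulin granule docking, read 6.62, 6.43 and 6.24 in weaned and 5.81, 6.22, 6.24 and 6.46 in suckling mice. The mean was higher by 0.25 (-0.12 to 0.62), and by 0.08 with the acinar covariate. Rims4, a short RIM isoform, read 4.12, 4.08 and 4.42 against 4.98, 4.39, 4.71 and 4.34. The groups overlapped, and the difference was -0.40 ± 0.17 (unadjusted p = 0.0456, limma), or -0.28 without suckling replicate 2, the highest array. Rims3, the other short RIM, differed by 0.12, and Rims1, which lay at 3.16 to 3.67, by -0.17. The Munc13 gene Unc13a, which primes insulin granules, read 7.93, 7.34 and 7.15 against 7.44, 7.52, 7.77 and 7.52. It differed by -0.09 (-0.50 to 0.32), and by -0.32 without weaned replicate 4 (unadjusted p = 0.0475, limma). Unc13b, a second neuronal and islet priming gene, was lower on every weaned array (6.68 to 6.74 against 6.75 to 6.88, and 7.06 on suckling replicate 12). The margin was again narrow, and the difference was -0.17 ± 0.11 (unadjusted p = 0.162, limma). Unc13d, of immune cell granules, lay at 3.28 to 3.41 on all arrays. Unc13c lay near background, and its groups overlapped. Its fitted difference was -0.25 (unadjusted p = 0.135, limma). The bound from its means, at least 1.13-fold higher in suckling mice, rests on weaned replicate 4, its lowest array at 2.74, and was not tested. The other probe sets of Unc13c lay at background and differed by -0.08 to 0.10.

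Genes around this machinery were read from 5 further lists of 103 genes in all. Of these, 62 had a higher and 41 a lower mean in weaned mice, with a median of 0.04. None passed adjustment (limma), 7 had an unadjusted p under 0.05 (6.80%, against 7.58% of all genes), and groups did not overlap in 8 (7.77%, against 7.32%). Both shares are near the background, and the genes named below are those with the smallest p in each list. Among 24 release site, tethering and priming genes, the smallest p was that of Exoc7, the exocyst subunit that binds the plasma membrane. It read 6.40, 6.55 and 6.57 in weaned and 6.73, 6.94, 7.07 and 7.05 in suckling mice, a difference of -0.44 ± 0.12 (unadjusted p = 0.00505, adjusted p = 0.505, limma). Exoc6, another exocyst subunit, had a higher mean by 0.33 (unadjusted p = 0.0443), as did Ralgds, an activator of the exocyst regulator Ral, by 0.34 (unadjusted p = 0.0463). Both overlapped between groups, and the acinar covariate gave unadjusted p-values of 0.174 and 0.201 in limma. Among 24 vesicle membrane and cargo proteins, Scamp5, a secretory carrier membrane protein, was higher on every weaned array by 0.30 in the mean (unadjusted p = 0.0321, limma), with an unadjusted p of 0.153 under the acinar covariate. Syngr2 and Syngr4, synaptogyrins of vesicle membranes, differed by 0.18 and -0.18 and overlapped. Of 17 Rab3 and Rab27 genes, the small GTPases of granule docking and their partners, none had an unadjusted p under 0.05. The smallest belonged to Exph5, Rab37 and Rph3al, which differed by 0.21, 0.13 and 0.11. Of 14 other C2 domain calcium sensors, Doc2b, a calcium sensor of insulin release, differed by 0.30 (unadjusted p = 0.0637, limma). Mctp1, whose weaned mean lay at background, was at least 1.28-fold higher in suckling mice, a bound that was not tested. Its fitted difference had an adjusted p of 0.546 in limma. Mctp2 lay at background in both groups.

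The arrays differed in how often they held the highest or lowest value. Over the 60 members above background, where an even share would be 8.57 for each array, suckling replicate 12 was the highest array for 14 and the lowest for 5, whereas weaned replicate 4 was the highest for 12 and the lowest for 14. Suckling replicate 2 was the lowest for 12 and the highest for 8. Weaned replicate 12, which carried neither sex-linked signal, was the highest for 4 and the lowest for 8. The SD within the suckling group ran from 0.05 to 0.43 over all members, with a median of 0.17.

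**Figure D4:**
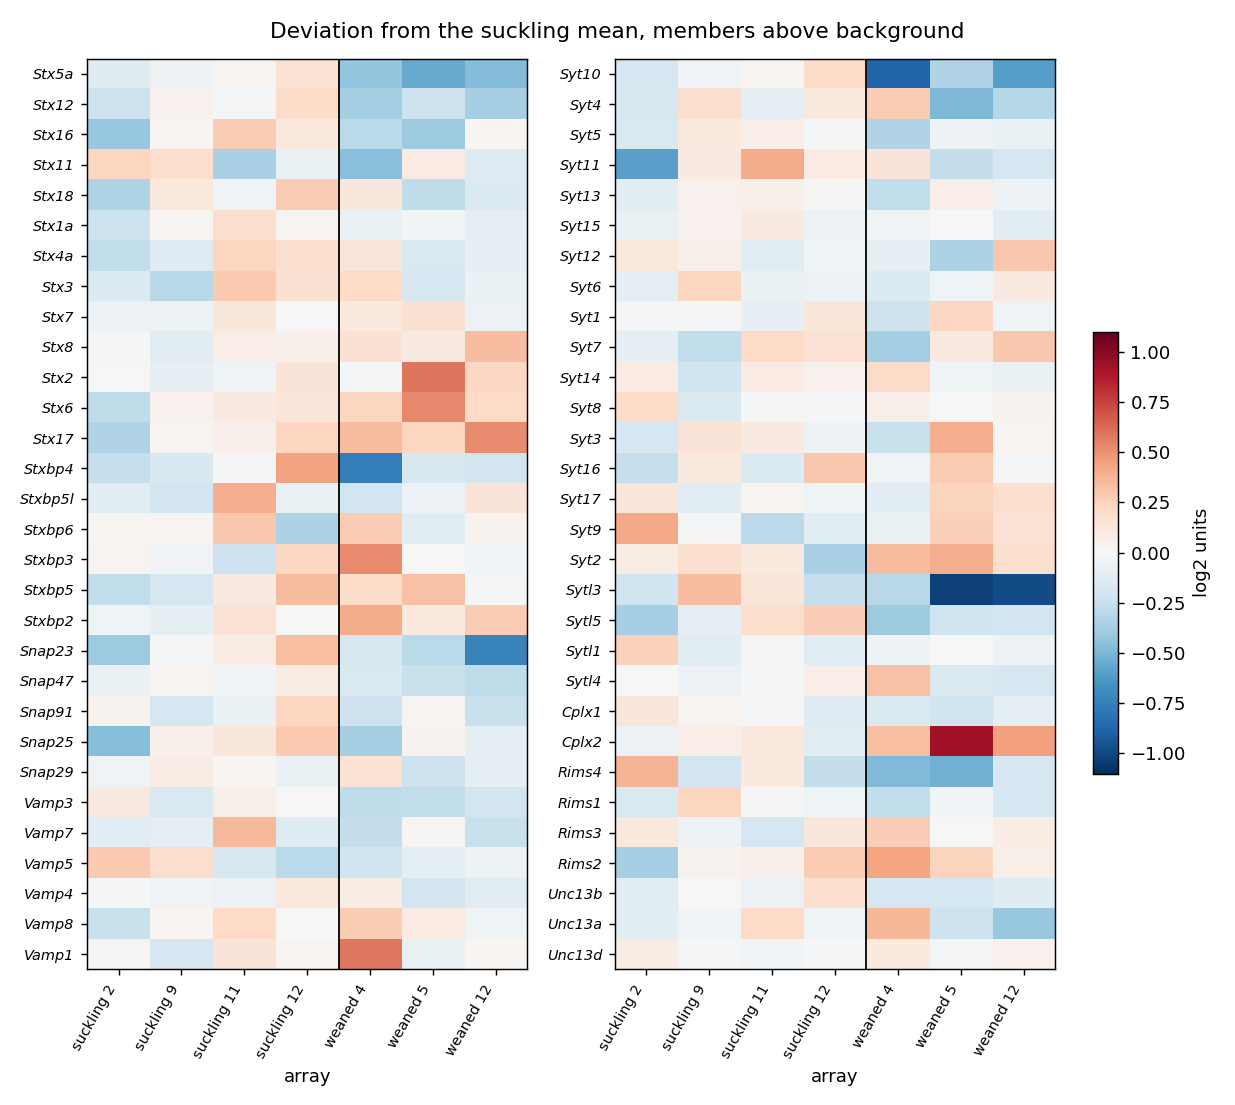
Deviation of each array (columns) from the suckling mean of the same gene, in log2 units on a colour scale from -1.1 to 1.1, for the 60 members above background (rows, by family). Blue across all 3 weaned columns is seen for Stx5a, Syt10 and Sytl3, among others, and red for Cplx2, among others. The darkest cell of Cplx2 is weaned replicate 5. Every gene has both colours in the suckling columns, because its suckling mean was subtracted.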

How the data were processed

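Sorted beta cells of 7 mice were measured, 1 array each. RNA was purified with an RNeasy micro kit and amplified with Ovation Pico V2, per the labels' protocols, which adds scatter that cannot be told apart from that between mice. The submitters' processing notes name RMA and Partek 6.6 as what the authors used for the deposited intensity values, which are linear (1.45 to 12755), so log2 was taken here. Of 35556 probe sets, 21789 carried 1 gene symbol; the brightest stood for each of 19938 genes, and members lay on 75 probe sets. Limma 3.58.1 (lmFit and eBayes, R 4.3.3, two-sided, no covariate, Benjamini-Hochberg over all genes) compared the groups. The fit was also run on simulated data with normal noise. The pass mark there was set on changes larger than any member's difference. Smaller planted changes, near the size of the largest member differences, were also run. Their recovery is not given here, so nothing is said on how often differences of that size would be found. P-values set the group difference against the spread of arrays within groups, which limma draws toward the spread over all genes. That spread holds mice and amplification together, and the number of arrays limits precision. Levels of different genes were compared only in the list means, in words such as bright or low, and with the background level. That level differed between the genes that set it: without signal Xist read 1.95 to 2.52 and Kdm5d 2.73 to 3.15. Calls at background and bounds depend on it. The number of value columns left out was 0.

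The members, gene lists and tests were chosen with earlier results of these data known. Named were the 15 members with the smallest p, the 3 with the widest suckling spread above background, a fixed set of 28 beta cell genes, of which 2 were not analysed here, and the 3 smallest p of each further exocytosis list. Outside this rule, the remaining members, the partners of Stx5a and the cell type markers were named after their values were seen. The 15 alternatives were quantile normalization, median centring, a trended robust prior, a filter at the 25th percentile, averaged probe sets, array weights, the acinar covariate, and leaving out arrays singly or suckling replicates 2 and 9 together.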

Additional observations from a re-analysis of the deposited data

How the results depend on the processing

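The count past an adjusted p of 0.05 was 0 in every alternative run with limma, and the median difference stayed between -0.09 and -0.03. Members at an unadjusted p under 0.05 numbered 7 to 11 when 1 array was left out, with 1 to 3 higher and 4 to 9 lower in weaned mice, and members whose groups do not overlap numbered 12 to 21. The higher count was 1 with the acinar covariate, the lower count was 5 without genes under the 25th percentile, which removed Stx19 and gave Vamp3 an unadjusted p of 0.0630 and Snap47 of 0.0721, and 24 members did not overlap without suckling replicates 2 and 9, where fewer arrays are compared. None of these counts has a share over all genes beside it, because that share was taken in the main fit alone. Of the values of single named members under the alternatives, 503 stayed on their side of an unadjusted p of 0.05, 44 moved above it and 22 below it. The sign changed in 0 of 164 values of members at an unadjusted p under 0.05, and in 30 of 405 values of the others, over 12 members whose differences were at most 0.17. Of the 11 members at an unadjusted p under 0.05, Stx5a, Syt10, Cplx2 and Sytl3 kept it in 15 of 15 alternatives and Stx19 in 14 of 14, Stx12 in 10, Stx17 and Rims4 in 8, Stx6 and Snap47 in 7 and Vamp3 in 6. These 11 were picked by their p on the same arrays, which every alternative reuses in full or in most part. Kept signs and kept p-values are therefore favoured by the choice and are no independent support. Median centring moved the median of all genes by less than 0.1. No paired analysis was possible because the groups share only 1 replicate number (12). Members near background can show no more than bounds.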
